A study of Mus musculus with 8 samples.

Results

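Transcript levels of 36 genes of glycolysis and of the cellular response to low oxygen were examined in fibroblasts of the healing mouse infarct. The genes were taken by symbol from a list, out of 54532 genes in the deposited expression table. The list was chosen with earlier results of these data known. They occupied 37 rows, because Aldoa is listed under both ENSMUSG00000030695, used here as Aldoa, and a neighbouring gene model, ENSMUSG00000114515. The list held 4 transporters of glucose and monocarboxylates (Slc2a1, Slc2a3, Slc16a1 and Slc16a3) and 15 enzymes of the glycolytic chain. It also held 2 enzymes that set the level of fructose 2,6-bisphosphate, 3 genes for the fate of pyruvate, 5 for control of the hypoxia-inducible factors (HIFs) and 7 targets of these factors.

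The cells were sorted from hearts by PDGFRα, a receptor found on most fibroblasts of the heart, 7 days after a coronary artery was occluded, and were not cultured. Libraries numbered 1 to 4 carried the genotype label FTbR2KO, a loss of the TGF-β receptor TbR2 in fibroblasts after tamoxifen. Libraries 5 to 8 were labelled TbR2fl/fl, the controls, whose name denotes a floxed receptor gene and which were given tamoxifen too. No source used here names the Cre transgene or the age of the mice. Since the labels do not tie each sample to its own animal, p-values reflect the spread among samples, which may be technical.

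Glycolysis splits glucose into pyruvate in the cytosol and yields ATP without oxygen. Pyruvate is then oxidised in mitochondria or reduced to lactate by lactate dehydrogenase, and lactate leaves the cell through monocarboxylate transporters. When oxygen is plentiful, prolyl hydroxylases mark the α subunits of HIF for binding by the VHL protein and for degradation. When oxygen is scarce the subunits persist and switch on many genes of glucose uptake, glycolysis and adaptation, and activated fibroblasts of wounds are known to rely on glycolysis.

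Depth was 16.1 to 28.7 M recovered reads per library, with fewer in the libraries labelled FTbR2KO (19.1 ± 2.95 M, SD, n = 4) than in the controls (26.5 ± 3.59 M; exact permutation p = 0.0571, two-sided). Levels are given as FPKM, which divides the fragments of a gene by its length and by the depth of the library. The deposited gene length was used, which can far exceed the main annotated transcript. For Pfkp it was 13401 bases, where the principal transcripts hold 4046 windows of 100 bases, and for Slc16a1 4426 bases and 4327 windows. Levels of different genes, and ratios between them, are therefore only roughly comparable. The ratio of the same gene's FPKM between libraries does not depend on its length. A length set too long does lower FPKM, which shrinks differences in log2(FPKM + 1) and can keep a gene below the level for testing. Tgfbr2, the gene for TbR2, went against the label at 58.2 ± 1.30 FPKM (SD, n = 4) in the libraries labelled FTbR2KO, against 45.5 ± 3.86 in the controls. The groups were separate, but the difference did not pass after adjustment over all tested genes (limma adjusted p = 0.571, exact permutation p = 0.0286, two-sided). A value for the whole gene cannot show the loss of single exons. Fibroblast markers were high in every library, the 7 of them summing to 7838 to 9437 FPKM under the FTbR2KO label and 9314 to 10156 among controls. Most of each sum was Col1a1 and Col1a2, which lay below every control under that label (limma adjusted p = 0.571 and 0.581). For the other markers the groups overlapped, and Pdgfra, the gene of the sorting marker, was read at 45.5 to 85.6 FPKM. The leukocyte gene Ptprc reached at most 0.0346 FPKM, and 6 macrophage markers summed to 6.55 to 10.04 FPKM and 7.51 to 9.97. The 5 endothelial markers summed to 1.14 to 2.54 and 1.56 to 2.88 FPKM, and the 5 cardiomyocyte markers to 1.84 to 4.13 and 2.57 to 3.61. The 5 mural cell markers were higher, at 45.1 to 71.6 and 46.1 to 61.7 FPKM, and the 5 erythroid markers summed to 43.6 FPKM in TbR2fl/fl 6 and to 3.56 to 11.2 in the other libraries. FTbR2KO 1 and TbR2fl/fl 5 stood apart on the first principal component of all tested genes (33.0% of the variance), with scores of -24.4 and -20.9. The other 6 libraries ran from -0.108 to 19.0, with TbR2fl/fl 8 at the upper end. Libraries 1 and 5 carry the lowest code numbers of the 8 sample titles, and the labels do not say what the codes stand for. Spreads and counts that rest on these libraries are given with and without them, as are the genotype differences that change sign.

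Between genotypes no difference passed the test for any of the 33 rows that were expressed highly enough to be tested. In limma on log2(FPKM + 1), with Benjamini-Hochberg adjustment over 11667 genes, 0 of 33 had an adjusted p under 0.05, while 2 of all tested genes did (0.0171%). The smallest adjusted p among the 33 was 0.571, for Ddit4 and Gapdh. At an unadjusted p under 0.05 the count was 2 of 33, or 6.06%, both lower in the libraries labelled FTbR2KO, beside 8.61% of all tested genes in both directions and 4.87% lower. The values of the groups were separate in 0 of 33, beside 4.41% of all tested genes (2.52% with all FTbR2KO values above and 1.89% below). Among the 33, 11 log2 fold changes lay above 0 and 22 below (66.7%), with a median of -0.079, where 51.2% of all tested genes lay below 0. This median was -0.0014 without TbR2fl/fl 8, -0.039 without FTbR2KO 1 and -0.075 without libraries 1 and 5. The largest positive value was 0.22 for Epas1 and the most negative -0.85 for Gapdh, which was -0.54 without TbR2fl/fl 6. The 95% confidence interval lay within a log2 change of 1 in either direction for 32 of 33 (97.0%), all except Gapdh, beside 96.7% of all tested genes. In bulk samples, fewer cells of a type and less RNA per cell cannot be told apart.

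**Figure D1:**
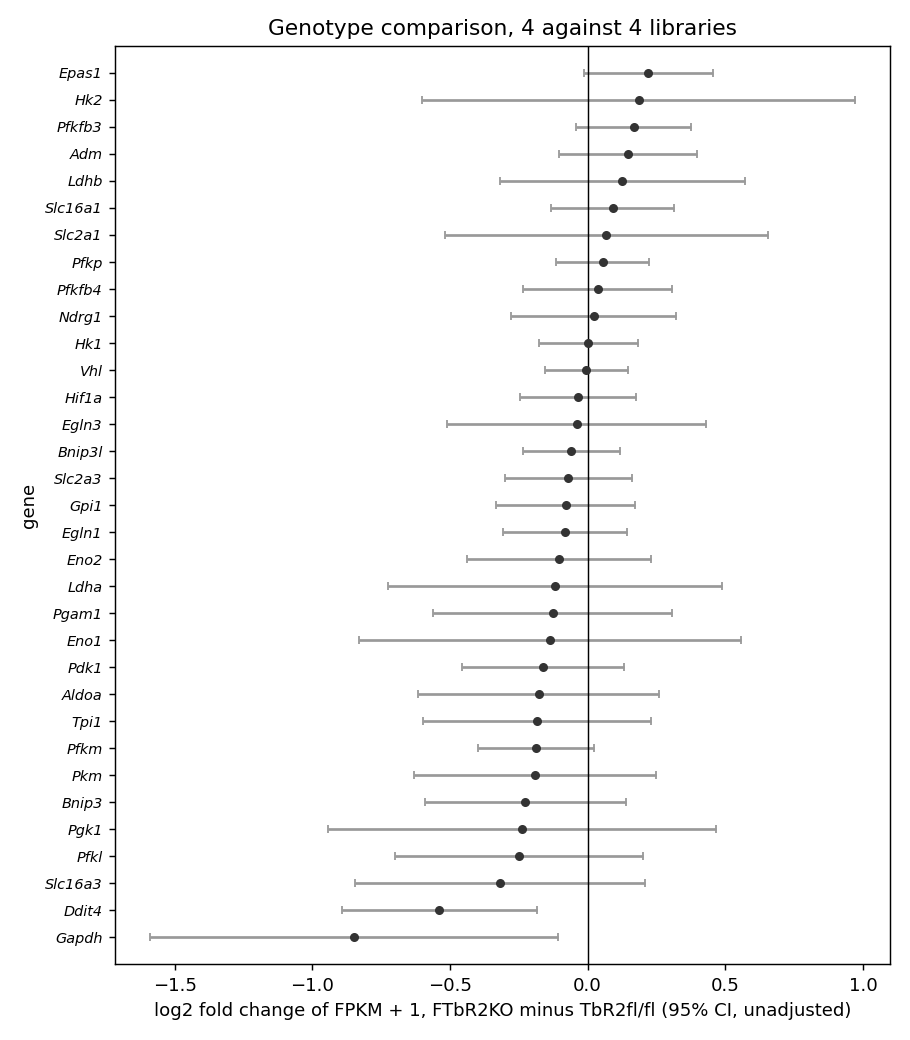
Log2 fold change of FPKM + 1, libraries labelled FTbR2KO minus TbR2fl/fl, for the 33 tested genes, with bars for the unadjusted 95% confidence interval from limma. Ddit4 and Gapdh are the genes whose bar does not cross 0, and none passed after adjustment over all tested genes.

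Glucose enters fibroblasts mainly through facilitative transporters, of which Slc2a1 encodes GLUT1 and Slc2a3 the high-affinity GLUT3. Slc2a1 (chr4:119108711-119137983, plus strand) was read at 4.44, 6.84, 7.95 and 5.79 FPKM in FTbR2KO 1 to 4, and at 3.02, 7.17, 5.73 and 8.73 in TbR2fl/fl 5 to 8. The lowest values were those of TbR2fl/fl 5 and FTbR2KO 1, and the groups overlapped widely (6.26 ± 1.50 against 6.16 ± 2.43, SD, n = 4). Its log2 fold change was 0.07 (SE 0.26, 95% interval -0.52 to 0.65; limma adjusted p = 0.957). Slc2a3 was lower in level, at 1.08 to 1.52 FPKM over the 8 libraries.

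Hexokinases trap glucose in the cell as glucose 6-phosphate. Hk2, the inducible form (chr6:82725025-82774454, minus strand), was read at 3.83, 8.42, 10.4 and 6.89 FPKM in FTbR2KO 1 to 4, and at 2.65, 9.89, 6.40 and 7.30 in TbR2fl/fl 5 to 8. FTbR2KO 1 and TbR2fl/fl 5 were again the low libraries, and the highest was 3.91 times the lowest (1.62 times without them). Its SD of log2(FPKM + 1) over the 8 libraries was larger than that of 97.4% of tested genes (84.2% without those libraries), and the genotype difference was 0.19 (SE 0.35, interval -0.60 to 0.97; limma adjusted p = 0.898). Hk1, the form expressed in most tissues, spanned only 8.41 to 10.1 FPKM, at 9.35 ± 0.744 and 9.33 ± 0.645 (SD, n = 4). Gpi1, which converts glucose 6-phosphate to fructose 6-phosphate, stood at 21.8 to 29.4 FPKM.

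Phosphofructokinase commits the sugar to glycolysis, and its liver, muscle and platelet subunits come from Pfkl, Pfkm and Pfkp. Their mean levels over the 8 libraries were 6.92, 8.47 and 4.39 FPKM. The deposited lengths behind these values were 6675, 3340 and 13401 bases, so the subunits are not ranked by level. Pfkl was read at 4.69, 6.07, 6.98 and 6.86 FPKM in FTbR2KO 1 to 4 and at 5.42, 8.35, 5.91 and 11.1 in TbR2fl/fl 5 to 8. TbR2fl/fl 8 was the high library, and the difference was -0.25 (SE 0.20, interval -0.70 to 0.20; limma adjusted p = 0.738). Pfkm was read at 8.76, 7.63, 6.51 and 8.61 FPKM against 9.62, 8.81, 9.08 and 8.70. All but 1 of the values from libraries labelled FTbR2KO lay below every control, the exception being 8.76, and the difference was -0.19 (SE 0.09, interval -0.40 to 0.02; limma adjusted p = 0.599). Pfkp varied less, from 3.74 to 4.78 FPKM.

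Fructose 2,6-bisphosphate, made and removed by the bifunctional PFKFB enzymes, is the main allosteric activator of phosphofructokinase. Pfkfb3, the form with the highest kinase activity, was read at 3.84, 4.51, 3.47 and 3.59 FPKM in FTbR2KO 1 to 4 and at 3.57, 3.31, 2.82 and 3.57 in TbR2fl/fl 5 to 8. The groups overlapped, with a difference of 0.17 (SE 0.09, interval -0.04 to 0.38; limma adjusted p = 0.628). Pfkfb4 stood at 1.13 to 1.88 FPKM and was highest in FTbR2KO 1 and TbR2fl/fl 5, the libraries in which Slc2a1 and Hk2 were lowest.

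Aldolase cleaves fructose 1,6-bisphosphate into triose phosphates, and its muscle form Aldoa (chr7:126795234-126800751, minus strand) had the highest mean FPKM of all 36 genes. This rank depends on the deposited gene lengths, and the values of Gapdh, Pgk1 and Eno1 are uncertain because they share sequence with other genes, as given below. Aldoa was read at 83.3, 96.6, 123 and 114 FPKM in FTbR2KO 1 to 4 and at 84.4, 131, 110.0 and 153 in TbR2fl/fl 5 to 8. Both low values came from libraries 1 and 5, one of each genotype, and the highest from library 8 (difference -0.18, SE 0.19, interval -0.62 to 0.26; limma adjusted p = 0.805). Its neighbouring model on the same strand, ENSMUSG00000114515, gave 0.440 to 1.08 FPKM. Aldoc, the brain form, was hardly read, with 6 recovered reads over the libraries labelled FTbR2KO and 38 over the controls.

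Tpi1 interconverts the triose phosphates. It was read at 30.6, 39.7, 44.0 and 45.3 FPKM in FTbR2KO 1 to 4 and at 33.9, 49.6, 40.9 and 59.5 in TbR2fl/fl 5 to 8. Here too libraries 1 and 5 were lowest and library 8 highest, at a genotype difference of -0.18 (SE 0.18, interval -0.60 to 0.23; limma adjusted p = 0.785). Pgk1, the first ATP-producing enzyme of the chain (chrX:106187100-106203699, plus strand), was read at 26.2, 43.3, 52.3 and 48.5 FPKM against 28.6, 56.8, 43.0 and 80.4. It spanned 3.07-fold (1.87-fold without libraries 1 and 5), and its SD was larger than that of 96.6% of tested genes (91.6% without them), while the genotype difference was -0.24 (SE 0.31, interval -0.94 to 0.47; limma adjusted p = 0.845). Pgam1, which moves the phosphate group within phosphoglycerate, was read at 34.8, 47.7, 52.2 and 53.7 FPKM against 37.8, 54.0, 48.0 and 68.1 (difference -0.13, SE 0.19; limma adjusted p = 0.871). Eno1, the enolase of most tissues, was read at 26.6, 44.0, 59.2 and 46.2 FPKM against 30.3, 54.8, 37.4 and 75.9 (difference -0.14, SE 0.31; limma adjusted p = 0.920). In each of these, libraries 1 and 5 were lowest and library 8 highest. Pkm, which makes pyruvate and a further ATP, repeated the order at 49.7, 64.8, 76.1 and 72.5 FPKM against 55.8, 81.8, 66.5 and 99.9 (difference -0.19, SE 0.20, interval -0.63 to 0.25; limma adjusted p = 0.791). Eno2, the neuronal enolase, was read at only 2.34 to 4.66 FPKM and was highest in library 5 and lowest in library 8.

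Gapdh (chr6:125161715-125166467, minus strand), which oxidises glyceraldehyde 3-phosphate and is a common reference gene, did not follow Tpi1, Pgk1, Pgam1, Eno1 and Pkm. It was listed at 3.01, 1.70, 1.59 and 2.08 FPKM in FTbR2KO 1 to 4 and at 3.03, 9.38, 5.64 and 2.26 in TbR2fl/fl 5 to 8. Its mean over the 8 libraries, 3.59 FPKM, was below those of Tpi1 (42.9) and Pgk1 (47.4), the enzymes before and after it in the chain. The deposited lengths were 4133 bases for Gapdh, 2753 for Tpi1 and 2244 for Pgk1, and the part of length in this gap was not tested. The groups overlapped, and the difference was -0.85 (SE 0.33, interval -1.59 to -0.11; unadjusted limma p = 0.0289, adjusted p = 0.571; exact permutation p = 0.0571, two-sided). In mouse transcripts of the GENCODE M21 annotation, 73.9% of the 1395 windows of 100 bases in the principal Gapdh transcript also occurred, letter for letter, in at least 1 of 86 other genes. Of these 86 genes, 16 were listed at 0 in every library and 4 reached 1 FPKM, the highest being Gm7336 with up to 18.3. Together they summed to 14.3, 15.5, 21.3 and 19.8 FPKM in FTbR2KO 1 to 4 and to 13.4, 25.1, 16.4 and 29.0 in TbR2fl/fl 5 to 8. Unlike Gapdh itself, this sum was lowest in libraries 1 and 5 and highest in library 8. No source used here says how the authors treated reads that match several genes, and the part of shared sequence in the Gapdh values was not tested. Library 6, where Gapdh was highest, also had the highest sum of erythroid markers, while library 7, with the next highest Gapdh, had the lowest, 3.56 FPKM. The part of erythroid cells in the Gapdh values was not tested either.

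Other abundant members share sequence as well. The share of 100-base windows found in another gene was 67.0% for Pgk1, 59.0% for Eno1, 39.7% for Pgam1 and 33.5% for Bnip3. It was at least 10% in 7 of 37 rows and 0 in 20 of 37, among them Aldoa. Ldha (1.26%) and Pkm (9.82%), like Pgk1 and Eno1, were lowest in libraries 1 and 5 and highest in library 8. The shares depend on the window: with 50 bases they were 12.5% for Aldoa, 16.4% for Ldha and 34.4% for Pkm, at least 10% in 14 of 37 rows and 0 in 16. Eno1b, a close copy of Eno1, was read at 2.23, 3.34, 4.29 and 3.06 FPKM in FTbR2KO 1 to 4 and at 2.60, 3.87, 2.50 and 6.90 in TbR2fl/fl 5 to 8, also highest in library 8. Where genes overlap in the genome, as Pkm does with AC160637.1 on its own strand and Tpi1 with Spsb2 and Gapdh with Iffo1 on the other, their reads cannot be told apart if strand was not counted. Levels of genes with a high share are uncertain to the extent that reads were split among copies.

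**Figure D2:**
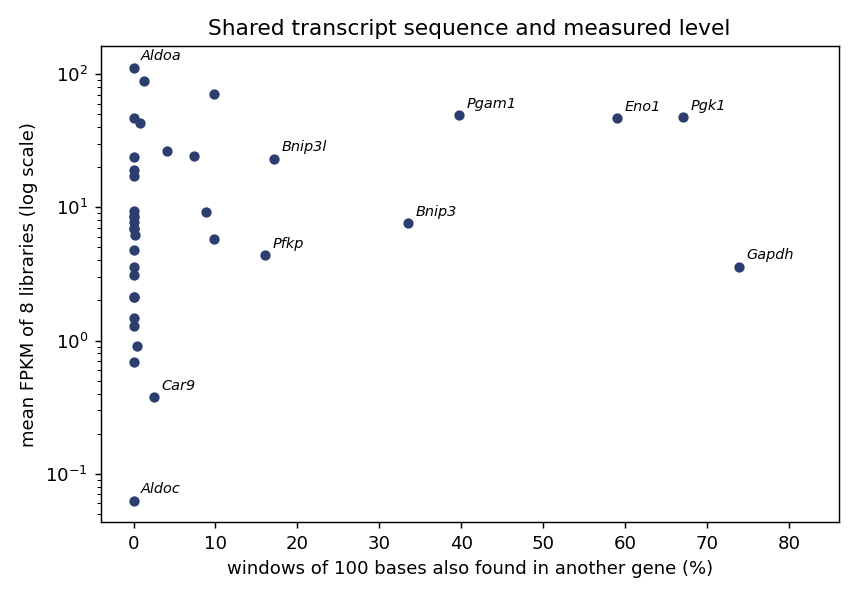
Mean FPKM over 8 libraries (log axis) against the percent of 100-base windows of each gene's principal transcript that also occur in another gene, 1 point per row of the table. Gapdh lies at the right, at 73.9% and 3.59 FPKM, while Pgk1 and Eno1 have shares of 67.0% and 59.0% at levels above 40 FPKM.

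At the end of the chain, lactate dehydrogenase is built from subunits encoded by Ldha, which favours making lactate, and Ldhb, which favours using it. Ldha (chr7:46841475-46855627, plus strand) was read at 54.2, 84.4, 107 and 89.8 FPKM in FTbR2KO 1 to 4 and at 57.2, 106, 79.6 and 127 in TbR2fl/fl 5 to 8. It was lowest in libraries 1 and 5 and highest in library 8, and the genotype difference was -0.12 (SE 0.27, interval -0.73 to 0.49; limma adjusted p = 0.921). Ldhb ran the other way, at 13.6, 7.59, 8.25 and 8.98 FPKM against 11.4, 7.10, 9.55 and 6.74, highest in libraries 1 and 5 and lowest in library 8. The Ldha to Ldhb ratio therefore spread from 3.97 in FTbR2KO 1 and 5.03 in TbR2fl/fl 5 to 18.8 in TbR2fl/fl 8, with 8.33 to 14.9 in the others.

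Lactate is exported by the monocarboxylate transporter MCT4, encoded by Slc16a3, while MCT1, encoded by Slc16a1, can carry it either way. Slc16a3 was read at 4.31, 6.72, 7.96 and 8.06 FPKM in FTbR2KO 1 to 4 and at 5.66, 8.82, 7.92 and 12.8 in TbR2fl/fl 5 to 8. It had the same low and high libraries as Ldha, with a difference of -0.32 (SE 0.23, interval -0.85 to 0.21; limma adjusted p = 0.715). Slc16a1 was read at 5.06, 4.86, 5.82 and 4.14 FPKM against 3.99, 5.06, 4.69 and 4.63, and was lowest in library 5 and highest in FTbR2KO 3. Pdk1, a kinase that blocks entry of pyruvate into mitochondrial oxidation, was read at 1.78, 1.92, 1.76 and 2.32 FPKM against 2.33, 2.37, 1.61 and 3.00 (difference -0.16, SE 0.13, interval -0.46 to 0.13; limma adjusted p = 0.738).

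**Figure D3:**
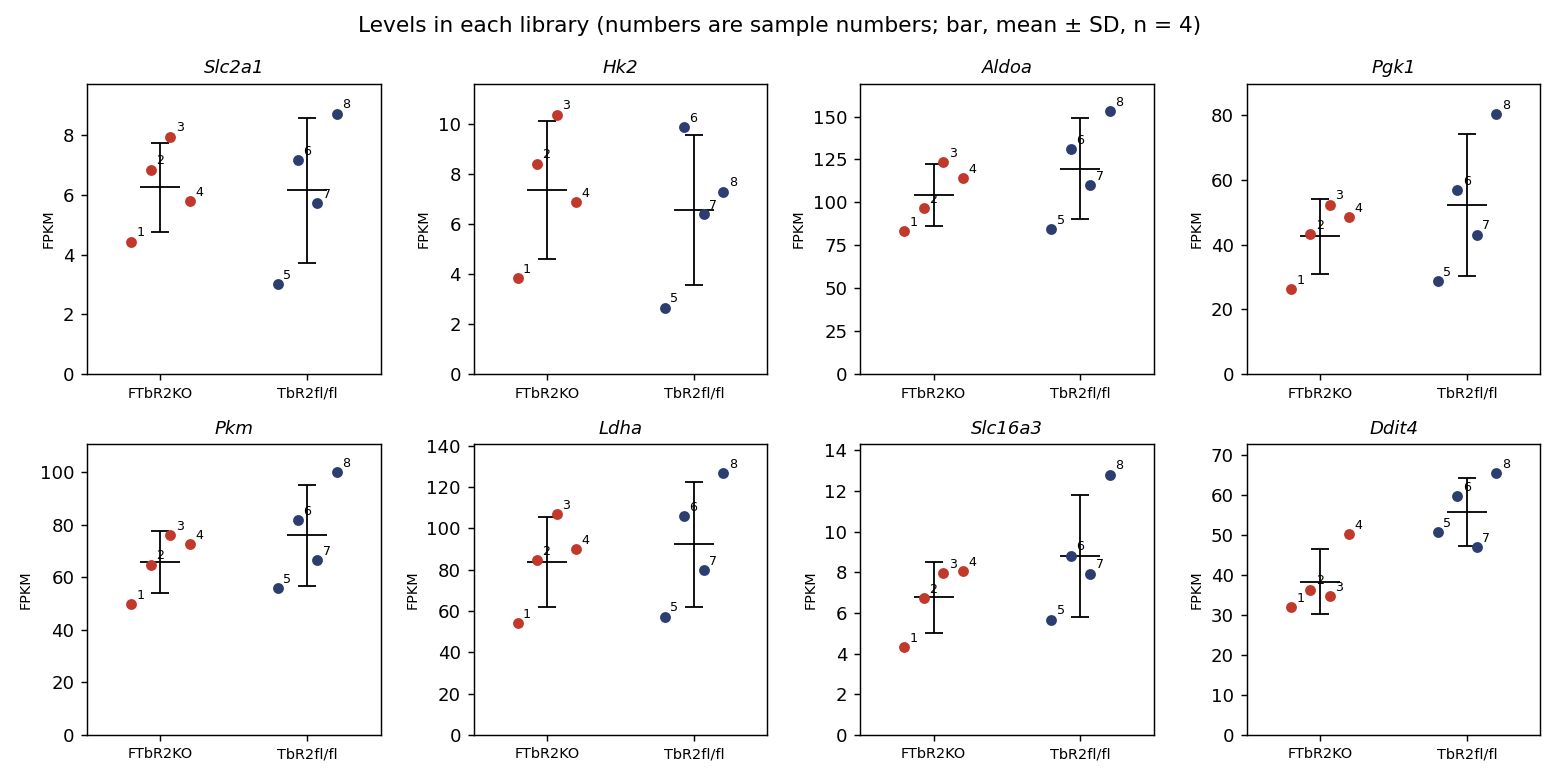
FPKM in each library for 8 genes, 1 panel per gene, with points numbered by library, libraries labelled FTbR2KO on the left, TbR2fl/fl on the right, and black bars for the mean and SD (n = 4). The groups overlap in every panel, including Ddit4, where FTbR2KO 4 at 50.1 lies above TbR2fl/fl 7 at 46.9.

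Of the 5 genes that control HIF, Hif1a, Egln1 and Vhl varied little between libraries and Egln3 varied more. Hif1a, which encodes the α subunit of HIF-1, was read at 22.5, 27.9, 27.8 and 26.0 FPKM in FTbR2KO 1 to 4 and at 26.3, 27.9, 24.4 and 28.2 in TbR2fl/fl 5 to 8. The groups coincided, with a difference of -0.04 (SE 0.09, interval -0.25 to 0.17; limma adjusted p = 0.933). HIF is controlled largely through the stability of this protein, which mRNA does not show. Epas1, which encodes the α subunit of HIF-2, was read at 28.0, 26.6, 26.1 and 22.2 FPKM against 22.8, 18.9, 21.7 and 24.4. FTbR2KO 1 to 3 lay above every control and FTbR2KO 4 did not, and the difference was 0.22 (SE 0.10, interval -0.01 to 0.45; limma adjusted p = 0.591).

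Egln1, the main oxygen-sensing prolyl hydroxylase PHD2, was read at 16.6, 17.7, 17.7 and 22.2 FPKM in FTbR2KO 1 to 4 and at 18.0, 20.4, 19.4 and 20.5 in TbR2fl/fl 5 to 8 (difference -0.08, SE 0.10, interval -0.31 to 0.14; limma adjusted p = 0.833). Egln3 (PHD3), itself a HIF target, was read at 2.47, 1.92, 1.82 and 1.81 FPKM against 2.37, 1.45, 1.32 and 3.70, with the controls on both sides of the other group. Its difference was -0.04 (SE 0.21, interval -0.51 to 0.43; limma adjusted p = 0.968), and its SD was larger than that of 88.2% of tested genes. Vhl, the recognition subunit that targets hydroxylated HIF for degradation, was the steadiest of the 33, at 9.30, 8.16, 8.39 and 8.84 FPKM against 8.76, 8.90, 8.28 and 8.85. The SD of its log2(FPKM + 1) was larger than that of only 1.23% of tested genes, and the interval of its genotype difference was -0.16 to 0.15.

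Among HIF targets, Ddit4 (REDD1, an inhibitor of mTORC1 that also responds to other stresses; chr10:59949669-59951834, minus strand) had the smallest p of all members. It was read at 31.9, 36.3, 34.6 and 50.1 FPKM in FTbR2KO 1 to 4 and at 50.6, 59.5, 46.9 and 65.4 in TbR2fl/fl 5 to 8. Only FTbR2KO 4 reached the range of the controls, and the means were 38.2 ± 8.09 and 55.6 ± 8.42 FPKM (SD, n = 4). The difference was -0.54 (SE 0.16, interval -0.89 to -0.18; unadjusted limma p = 0.00734, adjusted p = 0.571; exact permutation p = 0.0571, two-sided), and so it did not pass the threshold. Library 5 was not among the low ones for Ddit4, in contrast to Ldha and Slc2a1.

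Bnip3, a mitophagy receptor, was read at 7.45, 5.56, 7.42 and 7.09 FPKM in FTbR2KO 1 to 4 and at 7.37, 7.95, 6.43 and 11.7 in TbR2fl/fl 5 to 8. Library 8 alone was high, and the difference was -0.23 (SE 0.16, interval -0.59 to 0.14; limma adjusted p = 0.707). Its relative Bnip3l had the higher level and was even, at 21.0 to 24.8 FPKM. Adm, the precursor of the vasodilator peptide adrenomedullin, was read at 20.7, 17.3, 16.4 and 17.8 FPKM against 16.3, 17.4, 18.0 and 13.3 (difference 0.15, SE 0.11, interval -0.10 to 0.40; limma adjusted p = 0.728). It was lowest in library 8, where Bnip3 and Ldha were highest. Ndrg1, a stress-responsive gene, spanned 4.12 to 7.00 FPKM.

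The remaining targets were too low to be tested in the fit across genes. Car9, a cell-surface carbonic anhydrase often used as a marker of hypoxic tissue, was read at 0.425, 0.500, 0.483 and 0.323 FPKM in FTbR2KO 1 to 4 and at 0.296, 0.415, 0.318 and 0.244 in TbR2fl/fl 5 to 8, from 76 and 78 reads per group. The groups overlapped (0.433 ± 0.0798 against 0.318 ± 0.0715, SD, n = 4; exact permutation p = 0.0571, two-sided). Ankrd37 stood at 0.486 to 1.60 FPKM, from 88 and 181 reads (exact permutation p = 0.171, n = 4 per group).

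By FPKM, the 36 genes fell into a broad range without sharp steps, in an order that depends on the deposited gene lengths and is uncertain for genes that share sequence. Ordered by mean FPKM over the 8 libraries they ran from Aldoa, Ldha, Pkm, Pgam1 and Pgk1 down to Car9 and Aldoc. Of 36 neighbouring pairs of rows in this order, 33 had overlapping ranges over the libraries, and the separate pairs were Tpi1 above Hif1a, Adm above Hk1 and Car9 above Aldoc. Within each library, the higher gene of a pair was higher in all 8 libraries for 7 of 36 pairs, among them Aldoa above Ldha, Ldha above Pkm and Pkm above Pgam1.

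By the median, the tested members varied more between libraries than all tested genes, in libraries of either label, though the HIF regulators did not. The genes were not matched by level, and log2(FPKM + 1) lowers the SD of genes with low FPKM. The median SD of log2(FPKM + 1) over the 8 libraries was 0.228 for the 33 tested rows, beside 0.163 for all tested genes, and was 0.303 for the 14 glycolytic enzymes against 0.134 for the 5 HIF regulators. Without libraries 1 and 5 these medians were 0.183, 0.141, 0.218 and 0.124. In 12 of 33 (36.4%) the lowest values were those of FTbR2KO 1 and TbR2fl/fl 5, as they were in 18.6% of all tested genes. In 10 of these 12, library 8 was also the highest, which is 30.3% of the members beside 6.96% of all tested genes. These 10 were Slc2a1, Pfkl, Aldoa, Tpi1, Pgk1, Pgam1, Eno1, Pkm, Ldha and Slc16a3. They lie along the route from glucose uptake to lactate export but do not cover each of its steps. Hk1 and Hk2 shared the low libraries and not the high library 8. Gpi1, Pfkm, Pfkp, Gapdh and Eno2 did not have libraries 1 and 5 as the lowest. Ldhb and Pfkfb4 were highest in libraries 1 and 5. The first principal component of all tested genes likewise had libraries 1 and 5 at its low end and library 8 at its high end. The median deviation of the glycolytic enzymes from their own mean over all libraries was -0.42 in library 1 and -0.29 in library 5 on the log2 scale, against 0.23 in library 6 and 0.37 in library 8.

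**Figure D4:**
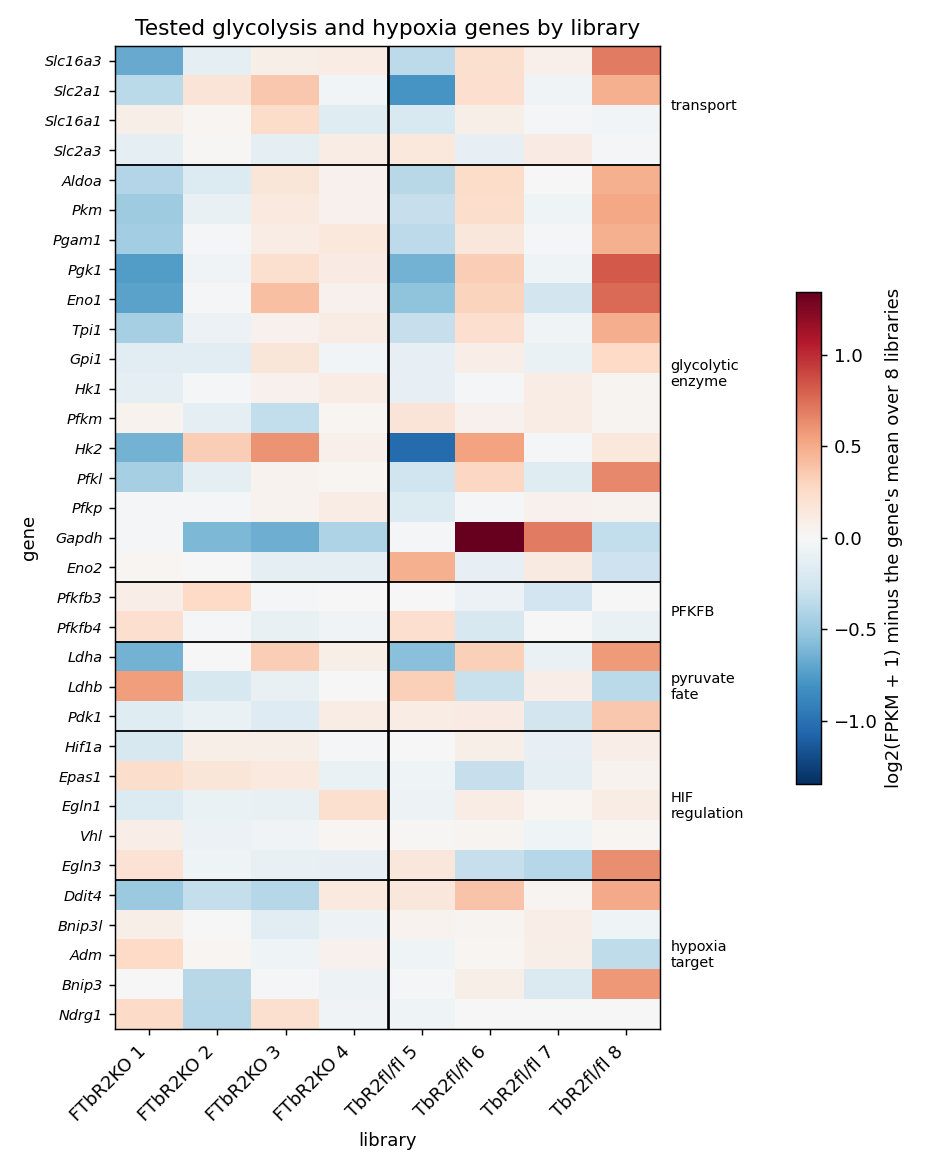
Deviation of log2(FPKM + 1) from each gene's mean over the 8 libraries, for the 33 tested rows ordered by role, with libraries 1 to 4 labelled FTbR2KO and 5 to 8 TbR2fl/fl. Most glycolytic enzymes are below their mean in libraries 1 and 5 and above it in library 8, whereas Ldhb and Pfkfb4 are above it in libraries 1 and 5 and Gapdh is highest in library 6.

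Among the 6 libraries other than 1 and 5, library 8 held the highest value in 16 of 33 members (48.5%), beside 18.4% of all tested genes. The highest value was over 2 times the lowest in 13 of 33 members with all libraries (39.4%, beside 18.6% of all tested genes) and in 4 of 33 without libraries 1 and 5 (12.1%, beside 12.5%). Other values were set beside this pattern, and only some were lowest in both libraries 1 and 5. Hspa1a, a heat shock gene induced by stress and by tissue handling, was read at 38.0 FPKM in library 1 and 18.5 in library 5, against 84.1 to 168 in the other 6, and Hspa1b at 86.3 and 40.3 against 169.9 to 309. The whole list of 8 dissociation and stress genes was not lowest in both, as it summed to 4395 FPKM in library 1 and 3590 in library 5, with 3556 in library 8. The 4 epicardial markers summed to 28.9 FPKM in library 1 and 16.4 in library 5, with 17.5 in FTbR2KO 3 and 11.1 in library 8. Their sum was 9.53 FPKM in library 2, 2.59 in library 4, 7.38 in library 6 and 0.439 in library 7. The 4 cell cycle genes summed to 5.59 FPKM in library 1 and 4.63 in library 5, with 4.59 in library 7 and 6.54 in library 3. Their sum was highest in library 2, at 17.2, ahead of 11.6 in library 8, 11.5 in library 4 and 10.7 in library 6. Depth was 16.1 M reads in library 1 and 27.7 M in library 5, and library 8 was the deepest at 28.7 M. The part of stress genes, epicardial cells, cell cycle or depth in the pattern was not tested.

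Ratios of plain FPKM within a library need no scaling between libraries, but the tested ratios, with 1 added to each value, are not fully free of it. The added 1 weighs most where a gene is near 0, as Aldoc was. For 12 pairs, differences in log2((FPKM + 1)/(FPKM + 1)) between genotypes were tested by an exact two-sided permutation test, which cannot give a p below 0.0286 with 4 against 4. The smallest p was 0.114, for Hif1a to Epas1 (adjusted p = 0.990 over the pairs). That ratio was 0.805, 1.05, 1.07 and 1.17 in FTbR2KO 1 to 4 and 1.15, 1.47, 1.13 and 1.15 in TbR2fl/fl 5 to 8, so in 3 of 4 libraries labelled FTbR2KO it lay below every control. The Eno1 to Eno2 ratio ran with the libraries, at 8.45 and 6.50 in libraries 1 and 5 against 11.0 to 32.4 in the others. The Hk1 to Hk2 ratio was 2.20 and 3.22 in libraries 1 and 5 against 0.923 to 1.57 in the others, so the constitutive form made up more of the hexokinase mRNA there.

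**Figure D5:**
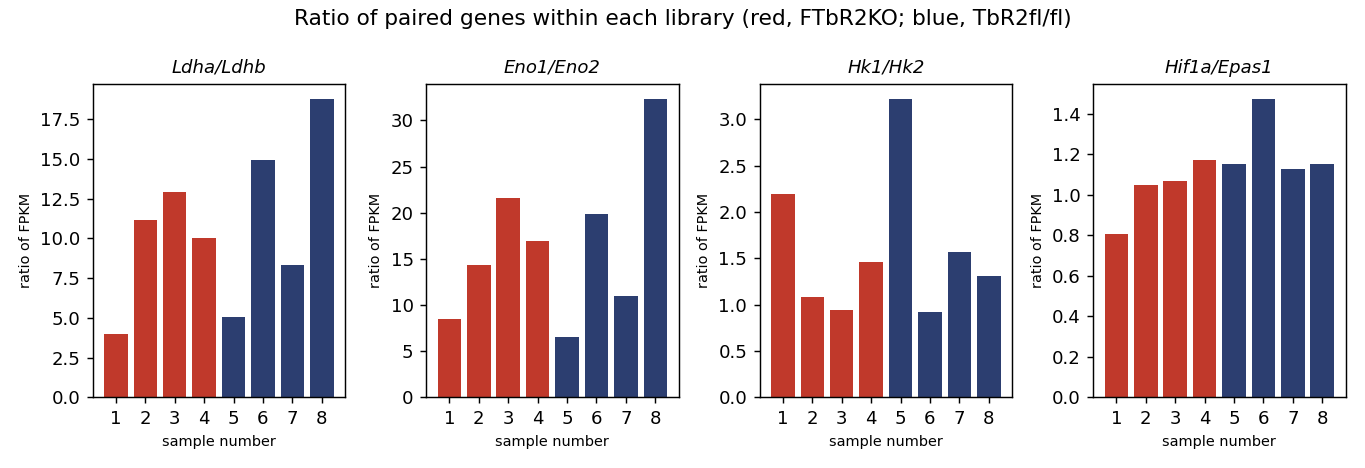
Ratio of FPKM within each library for 4 pairs of genes, libraries 1 to 4 labelled FTbR2KO and 5 to 8 TbR2fl/fl. The Ldha to Ldhb and Eno1 to Eno2 ratios are lowest in libraries 1 and 5 of either genotype and highest in library 8, and the Hk1 to Hk2 ratio is highest in libraries 1 and 5.

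HIF binds the core letters ACGTG or GCGTG, and the promoters of the members, a list that includes known HIF targets, were searched for them. In the 250 bases before each annotated start in RefSeq (GRCm38.p6), either strand, 36 of 45 member promoters held a match (80.0%), beside 56.5% of promoters of tested genes and 38.6% of all promoters. Overlapping matches were counted once, and promoters were found for 32 of 36 genes. Of these genes, 28 had a match in at least 1 promoter, and Tpi1, Gpi1, Vhl and Eno2 had none in this window. A match is a description of the letters and not a binding site, and its part in the pattern across libraries was not tested. The promoters below held the most matches, which are in capitals (the reverse complements are CACGT and CACGC). They are those of Bnip3 (chr7:138909520-138909756, minus strand, 237 bases), Ldha (chr7:46845554-46845803, plus strand), Pgam1 (chr19:41911621-41911870, plus strand) and Slc16a1 (chr3:104638414-104638663, plus strand).
Bnip3: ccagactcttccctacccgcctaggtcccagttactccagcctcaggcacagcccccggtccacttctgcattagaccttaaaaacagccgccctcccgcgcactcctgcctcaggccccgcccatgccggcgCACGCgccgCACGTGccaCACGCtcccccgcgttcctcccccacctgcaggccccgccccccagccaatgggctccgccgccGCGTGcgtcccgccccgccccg
Ldha: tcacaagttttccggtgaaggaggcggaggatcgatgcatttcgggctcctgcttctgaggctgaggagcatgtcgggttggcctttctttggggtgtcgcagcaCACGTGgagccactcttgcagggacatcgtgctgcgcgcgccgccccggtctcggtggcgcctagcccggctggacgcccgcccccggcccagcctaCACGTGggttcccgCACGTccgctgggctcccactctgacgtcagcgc
Pgam1: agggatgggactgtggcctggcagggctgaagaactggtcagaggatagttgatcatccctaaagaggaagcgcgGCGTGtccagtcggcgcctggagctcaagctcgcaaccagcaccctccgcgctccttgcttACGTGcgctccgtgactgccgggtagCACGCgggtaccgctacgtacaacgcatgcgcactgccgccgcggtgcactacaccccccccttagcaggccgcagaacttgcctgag
Slc16a1: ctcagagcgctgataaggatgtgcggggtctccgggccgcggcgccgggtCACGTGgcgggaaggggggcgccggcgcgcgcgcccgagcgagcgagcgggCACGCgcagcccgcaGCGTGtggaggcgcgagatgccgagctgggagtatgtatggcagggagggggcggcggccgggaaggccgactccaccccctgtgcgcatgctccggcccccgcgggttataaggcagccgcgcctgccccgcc
Bnip3 had 4 matches, from 117 to 35 bases before the start, and the others 3 each. The Ldha window lies within the annotated gene, outside its exons, before an internal RefSeq start. Its matches began 145, 48 and 34 bases before its start, and the matches of Pgam1 175, 114 and 88.

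The wider pathway was described with 54 further genes of glycolysis, pyruvate oxidation, the HIF machinery and its targets, 41 of which were tested. None passed the adjusted threshold in limma (0 of 41), and 4 had an unadjusted p under 0.05 (9.76%, beside 8.61% of all tested genes), 1 higher and 3 lower. The log2 fold changes lay above 0 in 17 and below in 24 (58.5%, beside 51.2% of all tested genes), with a median of -0.02. The values of the groups were separate in 2 of 41, beside 4.41% of all tested genes. Libraries 1 and 5 were lowest in 10 of 41 (24.4%, beside 18.6% of all tested genes). In 6 of them library 8 was also highest (14.6%, beside 6.96% of all tested genes).

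The smallest p belonged to Rora, a nuclear receptor gene that HIF-1 can induce, read at 5.83, 6.27, 5.28 and 5.53 FPKM in FTbR2KO 1 to 4 and at 4.68, 3.90, 4.94 and 5.13 in TbR2fl/fl 5 to 8. All its values in the first group lay above the controls (difference 0.25, SE 0.09; limma adjusted p = 0.571). Egln2 (PHD1), the third prolyl hydroxylase, was read at 11.2, 10.4, 12.3 and 12.2 FPKM against 14.3, 13.2, 12.8 and 13.4, all below the controls (difference -0.20, SE 0.08; limma adjusted p = 0.571). Neither passed the threshold, and exact permutation gave 0.0286 for each, the smallest it can give. Mpc2, a subunit of the mitochondrial pyruvate carrier, stood at 3.97 ± 0.345 and 4.77 ± 0.485 FPKM (SD, n = 4; limma adjusted p = 0.571), and Eno3, the muscle enolase, at 2.66 ± 0.355 and 3.29 ± 0.380 (limma adjusted p = 0.580). Higd1a, a hypoxia-induced mitochondrial gene, stood at 5.60 ± 1.13 and 7.88 ± 2.36 FPKM (limma adjusted p = 0.591), and P4ha2, a collagen prolyl hydroxylase subunit, at 9.44 ± 1.02 and 10.9 ± 0.913 (limma adjusted p = 0.596).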

How the data were processed

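Poly(A) RNA from 8 sorted fibroblast samples was sequenced, per the labels' protocols. The authors deposited FPKM for 54532 genes, used as given. HTSeq 0.6.1, TopHat2 2.0, Cufflinks 2.1.1 and CASAVA appear in the submitters' processing notes beside the builds mm10 and GRCm38.p6, without their roles. Strand and the handling of multiple matches are not given there. FPKM multiplied by gene length gave whole reads in 100% of nonzero values (tolerance 0.01), the source of the depths.

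Genes reaching 1 FPKM in 4 or more of the 8 samples were tested on log2(FPKM + 1), which understates changes of low genes, in limma 3.58.1 (R 4.3.3; trended empirical Bayes, Benjamini-Hochberg, threshold 0.05, two-sided) and checked on simulated data. Exact permutation tests used scipy 1.17.1. Alternatives changed the pseudocount, filter, scaling, libraries and test.

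Members and lists were chosen with earlier results of these data known. Values per library are given for the 12 tested members with the smallest p, the 5 with the highest mean, and Hif1a, Epas1, Egln1, Egln3, Vhl, Slc2a1, Hk2, Ldha, Pdk1, Bnip3, Adm and Car9; others for which they are given were added after values were seen. From the other pathway genes the 6 with the smallest p are named, and promoters are those with the most matches, ties by mean FPKM. Coordinates come from the deposited table (GRCm38).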

Additional observations from a re-analysis of the deposited data

How the results depend on the processing

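No member passed the adjusted threshold in limma in any of 15 settings, and the smallest adjusted p was 0.181, for Ddit4 without FTbR2KO 4. The count over all tested genes was 1 with a minimum of 5 FPKM, 0 without FTbR2KO 1 and TbR2fl/fl 5 together, and 1 to 6 when leaving out 1 library (6 without FTbR2KO 4, 3 without TbR2fl/fl 8, 1 without FTbR2KO 1, 2 or 3). The fold change kept its sign in 20 of 33 members. Vhl was 0.0070 after quantile normalization and 0.0094 in limma voom on recovered reads, a test chosen after seeing the data. Without libraries 1 and 5, Hif1a was 0.024, Slc2a1 -0.055, Ndrg1 -0.075, Eno2 0.010 and the Slc2a1 to Slc2a3 ratio -0.052. Aldoa to Aldoc was 0.45 with a pseudocount of 0.1. Leaving out 1 library gave log2 differences of -0.32 to 0.075 for Ldha, -0.27 to 0.011 for Pgam1, -0.34 to 0.093 for Eno1, -0.077 to 0.030 for Hif1a, -0.034 to 0.048 for Hk1, -0.039 to 0.25 for Ldhb, -0.036 to 0.021 for Vhl, -0.13 to 0.43 for Hk2, -0.19 to 0.24 for Slc2a1, -0.060 to 0.16 for Ndrg1, -0.22 to 0.038 for Eno2, -0.18 to 0.16 for Egln3 and -0.033 to 0.12 for Pfkfb4. Without a change of sign it gave -1.10 to -0.54 for Gapdh, -0.49 to -0.0014 for Pgk1, -0.49 to -0.14 for Slc16a3, -0.38 to -0.074 for Pfkl, -0.33 to -0.048 for Aldoa, -0.33 to -0.049 for Pkm, -0.33 to -0.069 for Bnip3, -0.32 to -0.051 for Tpi1 and -0.67 to -0.46 for Ddit4. The pairs gave -0.15 to 0.33 for Slc2a1/Slc2a3, -0.40 to 0.10 for Hk1/Hk2, -0.22 to 0.13 for Pfkl/Pfkm, -0.24 to 0.025 for Aldoa/Aldoc, -0.38 to 0.31 for Eno1/Eno2, -0.58 to 0.11 for Ldha/Ldhb, -0.29 to 0.019 for Bnip3/Bnip3l and -0.22 to 0.091 for Egln1/Egln3. The cause was not tested for any of these. The planned count models edgeR and DESeq2 were not run, and limma voom took their place. No paired analysis was possible because the groups share no replicate numbers and the labels do not say what the sample codes stand for.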
